A study of Mus musculus with 4 samples.

Results

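Messenger RNA of hnRNP proteins, SR proteins and related splicing regulators was compared between Beta-TC-6 cells transfected with siRNA against NF90 (siNF90, 2 arrays) and with a negative control siRNA (siNTC, 2 arrays). Beta-TC-6 is an established mouse pancreatic beta cell line that makes insulin, and NF90 binds double-stranded RNA. Both siRNAs were carried in by a lipid reagent, the one against NF90 as several pooled duplexes, and every array holds total RNA of this 1 line, kept in DMEM at high glucose with serum. The labels state neither a time after transfection nor whether replicates were grown apart, so the spread behind every p-value is that of these arrays and may be technical alone. The gene encoding NF90 was not analysed here, and siNF90 therefore names a label, not a checked knockdown. Members were taken by gene symbol from the deposited Affymetrix Mouse Gene 2.1 ST table as genes whose symbol begins with Hnrnp, Srsf, Pcbp, Ptbp, Celf, Elavl, Rbfox, Mbnl, Nova, Khdrbs, Tia1, Tial1, Qk or Esrp. This gave 62 genes of 22180 in 13 families, each represented by the probe set with the highest mean where it had several (12 genes). Hnrnpa1, whose symbol stood alone on no probe set, was not analysed here, and 1 member, Hnrnpa1l2-ps2, is a pseudogene.

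Heterogeneous nuclear ribonucleoproteins (hnRNPs) coat new transcripts in the nucleus and often keep the spliceosome from exons, while SR proteins bind exonic enhancers and recruit it. The remaining families are sequence-specific regulators, several of which set tissue-specific splicing in neurons and in endocrine cells, which share many such factors. Many hnRNP and SR genes also control their own level by splicing in an exon that sends the transcript to nonsense-mediated decay. A whole-transcript probe set sums over exons and does not separate such isoforms.

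Promoter windows are shown for the 4 genes that the text returns to most often and that had 1 annotated start in the RefSeq table (build GRCm38.p6). They are the SR genes Srsf10 and Srsf3, Khdrbs2, and Hnrnpdl, the hnRNP gene with the lowest difference. Each run holds the 250 bases before the annotated start, 5′ to 3′ on the gene's strand, with capitals marking matches to 5 short motifs on either strand, some of which can overlap. They are the GC box bound by Sp1, spelled GGGCGG. Searched beside it was an ETS factor site, spelled CCGGAAG. The CCAAT box bound by NF-Y was searched by the letters of its name. The TATA box was searched as the letters TATAAA. The last was the core of the cyclic AMP response element (CRE), spelled TGACGTCA. The windows lie at chr4:135855821-135856070 (+), chr17:29032410-29032659 (+), chr1:32172472-32172721 (+) and chr5:100039223-100039472 (-), in the order printed.
Srsf10: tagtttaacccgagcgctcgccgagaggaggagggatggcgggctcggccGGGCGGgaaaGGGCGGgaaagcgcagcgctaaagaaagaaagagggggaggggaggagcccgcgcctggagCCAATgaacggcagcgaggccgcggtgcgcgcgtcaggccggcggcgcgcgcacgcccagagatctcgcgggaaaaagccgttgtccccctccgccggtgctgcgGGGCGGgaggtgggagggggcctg
Srsf3: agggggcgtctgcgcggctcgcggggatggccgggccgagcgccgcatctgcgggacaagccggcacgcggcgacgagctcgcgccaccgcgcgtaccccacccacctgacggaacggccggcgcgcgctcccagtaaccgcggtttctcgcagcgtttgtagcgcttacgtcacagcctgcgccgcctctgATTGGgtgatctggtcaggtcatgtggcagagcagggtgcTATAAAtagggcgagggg
Khdrbs2: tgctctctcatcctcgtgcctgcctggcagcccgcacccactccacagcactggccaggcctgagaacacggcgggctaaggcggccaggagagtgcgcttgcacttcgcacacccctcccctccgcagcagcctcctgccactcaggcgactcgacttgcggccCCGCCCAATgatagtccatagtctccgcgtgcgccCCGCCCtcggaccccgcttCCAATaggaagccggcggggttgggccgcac
Hnrnpdl: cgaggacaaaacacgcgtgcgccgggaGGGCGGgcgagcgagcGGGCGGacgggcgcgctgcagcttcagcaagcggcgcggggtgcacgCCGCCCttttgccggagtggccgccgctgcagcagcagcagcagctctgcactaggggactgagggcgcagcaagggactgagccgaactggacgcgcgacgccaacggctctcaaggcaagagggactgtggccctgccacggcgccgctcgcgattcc
The Srsf10 window held 3 GC boxes and 1 CCAAT box, and the Hnrnpdl window 3 GC boxes. The Khdrbs2 window held 2 GC boxes and 2 CCAAT boxes, 1 of each sharing bases. Srsf3 had no GC box there and instead 1 CCAAT box and 1 TATA box. Windows were counted across the RefSeq table with 1 chromosome left out, and 90 of them belonged to 51 members. The other members had no window in these counts. GC boxes were present in 92.3% of the 13 windows of SR genes, in 69.2% of the 26 windows of hnRNP genes, in 49% of the 51 windows of the other families and in 32.7% of all 32851 windows. CCAAT boxes were present in 65.4% of the hnRNP windows, 23.1% of the SR windows and 33.8% of all windows. The ETS letters stood in 38.5% of the SR windows against 6.91% of all windows, and the TATA letters in 10% of the member windows against 12.4%. CRE cores were found in 4.44% of the member windows, none of them of an hnRNP or SR gene, and in 1.55% of all windows. The median number of CpG dinucleotides was 33 in SR windows, 23 in hnRNP windows, 11 in those of the other families and 6 in all windows. Windows of 1 gene can overlap, and a match is a description of letters, not a binding site.

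The arrays shared their scale, with array medians from 1.65 to 1.68 on the log2 scale and highest values from 11.86 to 12.01. The line carried its beta cell markers on all 4 arrays. Of 15 markers 14 lay at or above the median level of all genes (1.845), with Iapp, Slc30a8, Chga and G6pc2 above 9 in both groups and Ucn3 below the median. Their log2 values summed to 103.28 and 102.57 on the siNTC arrays and to 102.15 and 101.82 on the siNF90 arrays. Single markers differed both ways, and 4 of the 15 (26.7%, against 10.3% of all genes) had an unadjusted p under 0.05: Slc2a2 at -1.08, Kcnj11 at -0.45, Nkx6-1 at 0.45 and Mafa at 0.38. Of the markers of other cells, 5 of 6 for other islet cells, 4 of 8 epithelial, 4 of 9 mesenchymal, 2 of 8 exocrine and 1 of 7 endothelial or blood markers lay at or above that level. The last, the macrophage marker Cd68, stood at 3.32 and 3.35 against 4.44 and 4.48. The mesenchymal marker Vim differed by 0.615, the epithelial Krt8 by 0.555 and Cdh1 by -0.375, and the low endothelial Cdh5 by -0.365, all 5 at an unadjusted p under 0.05. These were 11.1% of the mesenchymal, 25% of the epithelial and 28.6% of the endothelial or blood markers, against 10.3% of all genes. The median differences of these 3 lists were -0.01, 0.0325 and -0.03. The blood markers Ptprc (-0.015) and Adgre1 (-0.03), both low, did not differ as Cd68 did. The part of all these markers in the results was not tested. Without a measure of background, a value below 1.845 is named as low, not as undetected, and 58 of the 62 members lay at or above it in at least 1 group. Differences are siNF90 minus siNTC on the log2 scale with the standard error of the limma fit. Apart from placing genes against the median level, levels are not compared between genes. In RNA from whole cultures, fewer cells of a kind and less RNA per cell cannot be told apart. No gene passed the test at an adjusted p under 0.05 (0% of all genes), and therefore no member did. With a trend in limma's variance prior 101 genes (0.455% of all) passed, and no member. Among them were the markers Slc2a2 (adjusted p = 0.0153) and Cd68 (adjusted p = 0.0217).

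Members of the hnRNP family were slightly lower on the siNF90 arrays almost throughout. Of 19 measured, 16 had a difference below 0 and 3 above it, a share of 84.2%, where 45.8% of all genes lay below 0 and 53.1% above it. The median difference was -0.13, beside 0.015 over all genes tested, and the range ran from -0.27 to 0.04. In 11 of the 19 (57.9%) the siNF90 pair lay wholly below the siNTC pair, called separated downward here, and in none wholly above. Over all genes tested 39.8% were separated, 17.9% downward and 21.9% upward. No hnRNP gene had an unadjusted p under 0.05, against 10.3% of all genes and 14.7% of those at or above the median level. With a trend in the variance prior 4 of the 19 did, namely Hnrnpdl (0.00414), Hnrnpa2b1 (0.00745), Hnrnpu (0.00788) and Hnrnpab (0.0218), and none of them passed limma's adjusted threshold. The median stayed between -0.165 and -0.095 when each array was left out in turn, and was -0.15 with arrays centred on their medians and -0.114 after quantile normalization. Genes at or above the median level as a whole had a median of 0.02, with 46.2% below 0 and 21.8% separated downward. All hnRNP genes but the pseudogene lay well above that level, and no background closer to their levels was computed.

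**Figure D1:**
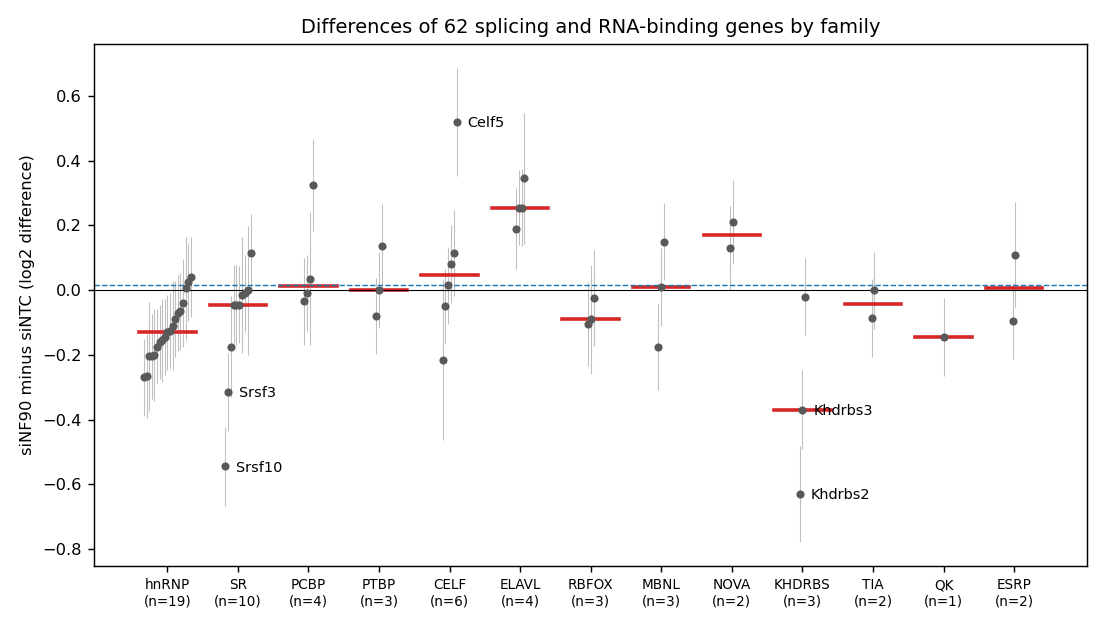
Each point is 1 gene, placed by family, with its siNF90 minus siNTC difference (log2) on the vertical axis and the standard error of the limma fit as a bar (2 arrays a group). Red lines are family medians and the dashed line is the median of all genes tested, 0.015; names are given at an unadjusted p under 0.05. The hnRNP points gather below 0 with a median of -0.13, and the 4 ELAVL points lie above it.

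The widest hnRNP differences belonged to a pair of RNA-binding proteins with a glycine-rich tail. Hnrnpdl, a relative of the mRNA decay factor AUF1, stood at 7.82 and 7.71 on the siNTC arrays and at 7.52 and 7.47 on the siNF90 arrays. Its difference was -0.27 ± 0.12, 1.21-fold lower (unadjusted p = 0.0666, adjusted p = 0.516). Hnrnpa2b1, which binds splice sites and sorts RNA into granules and vesicles, stood at 8.41 and 8.2 against 8.06 and 8.02, a difference of -0.265 ± 0.131 (adjusted p = 0.554). Both genes were separated downward. Hnrnpd, which encodes AUF1 and binds AU-rich elements, stood at 8.53 and 8.36 against 8.24 and 8.34. The groups were again apart, though barely, and the difference was -0.155 ± 0.129.

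Several hnRNP genes had arrays so close together within a group that a small difference separated them. Hnrnpu, a scaffold protein of the nuclear matrix, stood at 9.24 and 9.23 on the siNTC arrays and 9.07 and 9.08 on the siNF90 arrays. Hnrnpul1, its relative, stood at 8.16 on both siNTC arrays and at 8.04 and 8.03 on the siNF90 arrays. The differences were -0.16 and -0.125. Hnrnpf, which binds G-rich runs, stood at 6.8 and 6.81 against 6.62 and 6.64, a difference of -0.175. Hnrnpm, a regulator of muscle and epithelial splicing, stood at 7.8 and 7.74 against 7.64 on both siNF90 arrays. Within-group SDs of these 4 genes were between 0 and 0.0424, well under their differences. The fit draws such SDs toward those of all genes and gives standard errors of 0.115 to 0.116, and the unadjusted p-values were 0.18 to 0.32.

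The other hnRNP genes divided between separated and overlapping groups. Hnrnpab (-0.145), Hnrnpc (-0.09), the poly(C)-binding Hnrnpk (-0.07) and Hnrnpll (-0.205) were also separated downward. Hnrnpa0 (-0.205), Hnrnpr (-0.2), Hnrnph2 (-0.11), Hnrnph1 (-0.065) and Hnrnpa3 (-0.04) overlapped between groups. The members above 0 were Hnrnpl at 0.04, Hnrnpul2 at 0.025 and the pseudogene Hnrnpa1l2-ps2 at 0.005, which was low on all arrays (0.7 to 1.06), and all 3 overlapped. The paralogues Hnrnpl and Hnrnpll both bind CA-rich RNA. Hnrnpl stood at 6.98 and 7.02 against 6.97 and 7.11, and Hnrnpll at 6.57 and 6.55 against 6.25 and 6.46. Only Hnrnpll had separated groups, and the difference between the paralogues was not tested.

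**Figure D2:**
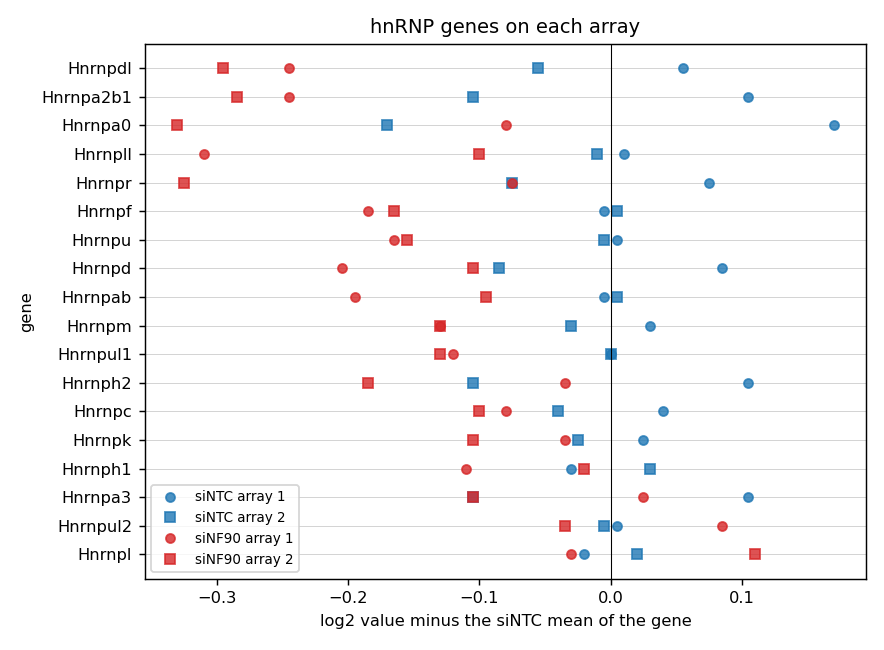
Rows are the 18 hnRNP genes without the pseudogene, and the horizontal axis is the log2 value on each array minus that gene's siNTC mean (blue siNTC, red siNF90, 2 arrays each). Red points lie left of the blue points without overlap in 11 rows, for example Hnrnpdl, Hnrnpu and Hnrnpul1, and mix with them in the lowest rows such as Hnrnpl.

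Probe sets that the rule did not use gave a mixed picture of the hnRNP genes. For Hnrnpu, the second probe set stood at 6.68 and 6.53 against 6.44 and 6.4, a difference of -0.185 beside -0.16 for the one used. For Hnrnpf, 3 further probe sets had differences of -0.585, -0.15 and -0.125, and the last, low on all arrays, had 0.115. The second Hnrnph2 probe set differed by -0.23. Hnrnpk disagreed most. Its used probe set (17479892) differed by -0.07, probe set 17293142 by -0.52, at 6.53 and 6.43 against 6.05 and 5.87, and probe set 17287891 by 0.565. The last stood at 1.94 and 1.58 against 2.15 and 2.5, so its siNTC mean of 1.76 is low. Further probe sets of Hnrnpd and Hnrnpul1, with siNTC means of 2.205 and 1.955, both differed by -0.01.

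Among SR proteins, Srsf10 and Srsf3 had the widest differences in a family that otherwise differed little. Srsf10 encodes an SR protein that represses splicing when dephosphorylated, as in heat shock and mitosis. It stood at 6.35 and 6.23 on the siNTC arrays and at 5.78 and 5.71 on the siNF90 arrays. The groups were apart by more than the distance within either, and the difference was -0.545 ± 0.122, 1.46-fold lower (unadjusted p = 0.00438, adjusted p = 0.357). With a trend in limma's variance prior its adjusted p was 0.0588, still above the threshold. That setting called 101 genes, 0.455% of all, and none of the 62 members. Srsf3, the smallest SR protein, which also acts in mRNA export, stood at 6.21 and 6.33 against 5.97 and 5.94. Its groups did not overlap either, and the difference was -0.315 ± 0.121, 1.24-fold lower (unadjusted p = 0.0405, adjusted p = 0.471).

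The other 8 SR genes had differences between -0.175 and 0.115. Srsf1, the founding splicing factor of the family, stood at 8.2 and 7.84 against 7.86 and 7.83. Its difference of -0.175 therefore rested on the first siNTC array, and it was 0.005 without that array. Srsf6 was the only SR gene separated upward, at 5.87 and 5.99 against 6.05 and 6.04. Srsf2, Srsf4 and Srsf5 each differed by -0.045, Srsf11 by -0.01, the low Srsf12 by -0.015 and Srsf9 by 0, all with overlapping groups. Srsf9 varied widely, at 5.37 and 4.86 on the siNTC arrays and 5 and 5.23 on the siNF90 arrays. The median of the family was -0.045, with 8 of 10 below 0, and 2 of 10 were separated downward (20%, beside 17.9% of all genes). The median was -0.09 without the first siNF90 array and -0.02 without the first siNTC array. On the chromosome, Cdkn1a (p21, a cell cycle inhibitor) is the next protein-coding gene after Srsf3 in the RefSeq table. It differed by 1.015 ± 0.119 (limma adjusted p = 0.342), with a mean of 6.36 on the siNTC arrays and 7.375 on the siNF90 arrays. Stk38, the gene before Srsf3, differed by -0.085. Cdkn1a was named after its value was seen, and a link between it and Srsf3 was not tested.

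**Figure D3:**
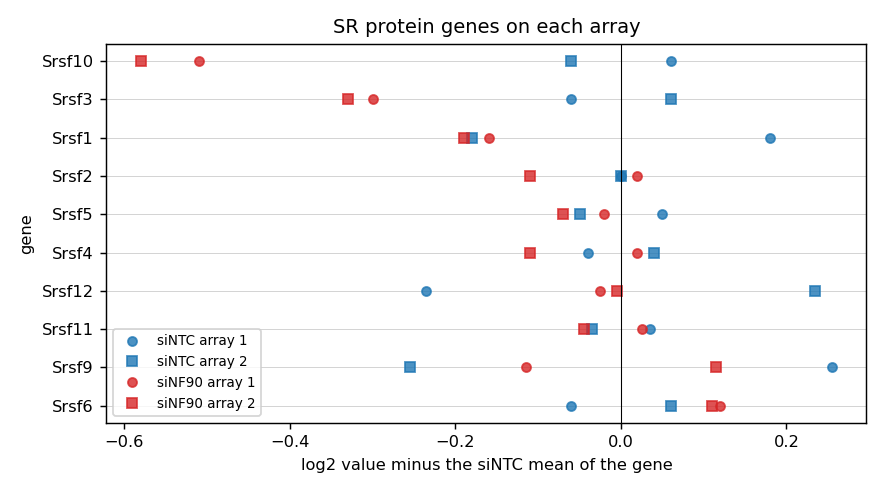
Rows are the 10 SR genes and the horizontal axis is the log2 value on each array minus that gene's siNTC mean (blue siNTC, red siNF90, 2 arrays each). The red points of Srsf10 and Srsf3 lie left of the blue ones, those of Srsf6 lie right of them, and the other rows overlap.

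KHDRBS proteins are STAR-domain RNA-binding proteins that regulate neurexin and other neuronal exons, and the lowest difference of all 62 members lay among them. Khdrbs2 (SLM1) stood at 4.18 and 4.02 on the siNTC arrays and at 3.33 and 3.61 on the siNF90 arrays. Its groups were far apart and the difference was -0.63 ± 0.148, 1.55-fold lower (unadjusted p = 0.00557, adjusted p = 0.357). Khdrbs3 (SLM2) stood at 5.77 and 5.88 against 5.41 and 5.5, a difference of -0.37 ± 0.122, 1.29-fold lower (unadjusted p = 0.0236, adjusted p = 0.434). Khdrbs1 (Sam68), the widely expressed member, stood at 6.1 and 6.11 against 6.03 and 6.14, and its groups overlapped. Its difference was -0.02 ± 0.119. Whether the paralogues differ from Khdrbs1 in their response was not tested.

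ELAVL (Hu) proteins bind AU- and U-rich sequences and stabilise mRNA, and all 4 had higher means on the siNF90 arrays. Elavl1 (HuR), present in most cells, stood at 7.16 and 7.08 against 7.39 and 7.23, a difference of 0.19 ± 0.126. Elavl4 (HuD), a neuronal Hu protein also known in beta cells, stood at 4.87 and 4.96 against 5.19 and 5.15, a difference of 0.255 ± 0.119. Elavl3 stood at 2.47 and 2.4 against 2.69 on both siNF90 arrays, also 0.255. Groups were apart in these 3 of 4, where 21.9% of all genes, and 26.3% of those at or above the median level, were separated upward. Elavl2 stood at 4.63 and 4.26 against 5.01 and 4.57 and overlapped, with the widest difference of the family at 0.345 ± 0.203. The median was 0.255, and none had an unadjusted p under 0.05 (0.0725 to 0.184). It was 0.18 without the first siNF90 array and 0.272 without the second.

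**Figure D4:**
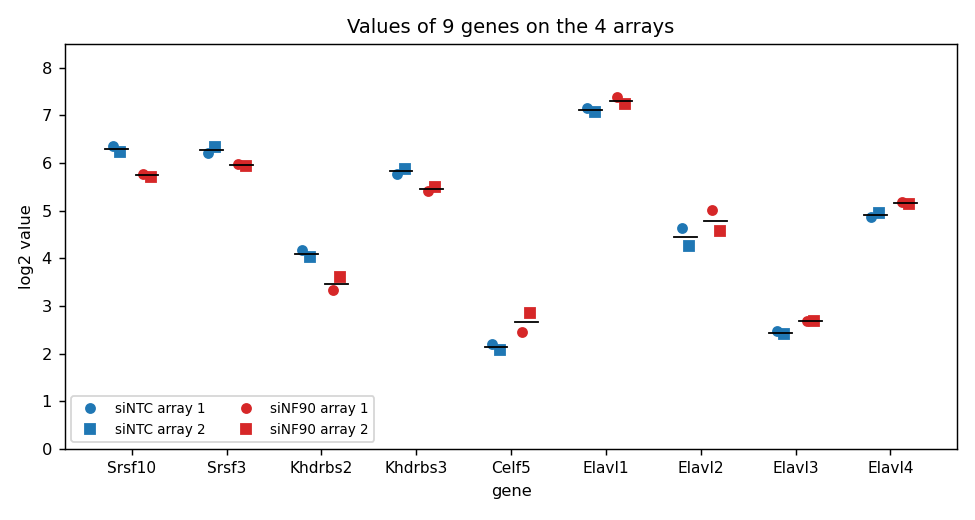
The vertical axis is the log2 value of each of 9 genes on the 4 arrays (blue siNTC, red siNF90), with a black bar at each group's mean. Srsf10, Srsf3, Khdrbs2 and Khdrbs3 lie lower and Celf5, Elavl1, Elavl3 and Elavl4 higher on both siNF90 arrays, while the Elavl2 arrays overlap; levels are not to be compared between genes.

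NOVA and CELF genes, which regulate splicing chiefly in neurons and muscle, had differences in both directions. Both NOVA genes and 4 of 6 CELF genes were higher, and Celf1 and Celf6 were lower. Nova1 stood at 5.89 and 6.05 against 6.12 and 6.24, with groups apart and a difference of 0.21 ± 0.129. Nova2 stood at 2.26 and 2.08 against 2.35 and 2.25 and overlapped, at 0.13 ± 0.13. Celf5 stood at 2.2 and 2.08 against 2.46 and 2.86, not far above the median level. It was the only member with an unadjusted p under 0.05 in the upward direction, at 0.52 ± 0.167, 1.43-fold higher (unadjusted p = 0.0212, adjusted p = 0.43). A second Celf5 probe set, low on all arrays, differed by 0.12 with overlapping groups. Celf1, which binds GU-rich RNA and is present in most cells, stood at 6.32 and 6.26 against 6.23 and 6.25. Celf2 stood at 2.33 and 2.36 against 2.37 and 2.48. Groups of both were apart by the least step of the table, with differences of -0.05 and 0.08. Celf3 (0.115), Celf4 (0.015) and Celf6 (-0.215) overlapped. In Celf6 the second siNF90 array lay at 2.12 and the first at 2.87, around siNTC values of 2.73 and 2.69.

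Markers of neurons, which beta cells partly share, are given beside the KHDRBS, ELAVL, NOVA and CELF genes. Of 12 measured, 8 were higher and 4 lower, with a median difference of 0.0775, and 7 lay at or above the median level. Groups were separated upward in 7 of the 12 (58.3%, against 21.9% of all genes) and downward in 2 (16.7%, against 17.9%). An unadjusted p under 0.05 was reached by 2 (16.7%, against 10.3% of all genes). Their log2 values summed to 49.45 and 50.45 on the siNTC arrays and to 50.67 and 50.77 on the siNF90 arrays. Those at an unadjusted p under 0.05 went opposite ways. The neurofilament gene Nefl differed by 0.53 ± 0.124 (unadjusted p = 0.00538). With a trend in limma's variance prior its adjusted p was 0.0217. The low Slc17a7, a glutamate transporter of synaptic vesicles, differed by -0.48 ± 0.147 (unadjusted p = 0.0173). Markers of particular neuron types (Slc17a6, Slc17a7, Slc32a1, Neurod6 and Tbr1) were all below the median level. Their part in these results was not tested.

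PTBP proteins bind pyrimidine-rich tracts and repress exons, with Ptbp2 replacing Ptbp1 as cells become neurons. The pair differed in opposite directions by little. Ptbp1 stood at 7.67 and 7.62 against 7.54 and 7.59, a difference of -0.08 ± 0.117, and Ptbp2 at 6.74 and 6.72 against 6.76 and 6.97, a difference of 0.135 ± 0.13. Groups were narrowly apart in both, and Ptbp3 differed by 0. Whether the paralogues differ in response was not tested.

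Among poly(C)-binding proteins, Pcbp1 had the largest difference. This gene without introns stood at 5.88 and 6.03 against 6.4 and 6.16, with groups apart, and differed by 0.325 ± 0.141, 1.25-fold higher (unadjusted p = 0.0619, adjusted p = 0.508). Its close relative Pcbp2 stood at 9.53 and 9.46 against 9.52 and 9.45, a difference of -0.01 ± 0.119. Pcbp3 (-0.035) and Pcbp4 (0.035) overlapped between groups.

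The remaining families, with 11 genes, had differences between -0.175 and 0.15. Mbnl1, a muscleblind protein that drives adult splicing patterns in muscle, stood at 7.41 and 7.46 against 7.37 and 7.15. Groups were apart, with a difference of -0.175 ± 0.132, while Mbnl2 stood at 7.43 and 7.48 against 7.52 and 7.41 and overlapped at 0.01 ± 0.12. Mbnl3 differed by 0.15, with its groups apart. Qk (quaking) stood at 5.85 and 5.88 against 5.66 and 5.78, also apart, at -0.145 ± 0.121. Rbfox2, which enhances or represses exons by where it binds, stood at 5.68 and 5.55 against 5.43 and 5.59 and overlapped, at -0.105 ± 0.13. Rbfox1 stood at 2.04 and 2 against 2.14 and 1.72, near the median level, and the low Rbfox3 differed by -0.025. Tia1, a stress granule protein that promotes use of weak splice sites, stood at 5.61 and 5.69 against 5.62 and 5.68, a difference of 0, and Tial1, its paralogue, at 6.23 and 6.16 against 6.16 and 6.06, a difference of -0.085. For Esrp1, an epithelial splicing regulator, the values were 3.92 and 3.87 against 3.82 and 3.78. The groups were apart, with a difference of -0.095 ± 0.117. Esrp2 was low, at 1.74 and 1.41 against 1.58 and 1.79, a difference of 0.11 with overlapping groups.

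Over all 62 members, 39 were lower, 20 higher and 3 equal, with a median of -0.045, and 20 were separated downward and 10 upward. Of these, 11 of the 20 separated downward and 16 of the 39 lower ones were hnRNP genes. Outside the hnRNP family 43 members had a median of -0.01, and 20.9% were separated downward and 23.3% upward, near the 17.9% and 21.9% of all genes. With a trend in the variance prior 11 members (17.7%) had an unadjusted p under 0.05, against 12.2% of all genes. In the main fit, without a trend, 4 of the 62 members were lower at that threshold, against 978 of the 22180 genes (4.41%). There 1 of the 62 was higher, against 1303 of the 22180 genes (5.87%). Together these were 5 members (Srsf10, Khdrbs2, Celf5, Khdrbs3 and Srsf3). They made 8.06% of the 62, a smaller share than the 10.3% of all genes and the 14.7% of genes at or above the median level. That number was 2 without either the first or the second siNTC array.

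Other genes of the splicing machinery had medians closer to 0 than the hnRNP family, and no difference between lists was tested. The core spliceosome, with 44 of 47 listed genes measured, had 23 genes lower and 19 higher, a median of -0.0175, and 12 separated downward and 8 upward (27.3% and 18.2%, against 17.9% and 21.9% of all genes). Snrpd1, an Sm protein of the small nuclear ribonucleoproteins, stood at 6.73 and 6.6 against 6.32 and 6.09, and differed by -0.46 ± 0.138. Plrg1 and Prpf4, a protein of the Prp19 complex and a protein of the U4/U6 particle, differed by -0.445 ± 0.154 and -0.36 ± 0.128. Lsm7, of the ring that holds U6 RNA, stood at 4.2 and 4.39 against 4.72 and 4.71, and differed by 0.42 ± 0.128. These 4 had an unadjusted p under 0.05 in the limma fit (0.0162 to 0.0308). They made 9.09% of the list, against 10.3% of all genes and 14.7% of those at or above the median level.

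SR-related proteins had 14 of 25 members higher and a median of 0.02. Srrm4 (nSR100), which promotes microexons in neurons, stood at 3.21 and 3.7 against 4.17 and 4.2. Its difference of 0.73 ± 0.183 (unadjusted p = 0.00746, adjusted p = 0.372) was wider than that of any of the 62 members, and was 0.485 without the first siNTC array and 0.975 without the second. Rsrc1 differed by -0.335 ± 0.121 (unadjusted p = 0.0327 in the limma fit). These 2 were the genes of the list at an unadjusted p under 0.05. They made 8% of it, against 10.3% of all genes and 14.7% of those at or above the median level. Kinases and importers of SR proteins had 8 of 12 lower and a median of -0.0175. Differences ran from -0.16 ± 0.118 for Clk1, which phosphorylates SR proteins, to 0.31 ± 0.127 for Dyrk1b, a related kinase.

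Other splicing and RNA-binding regulators had 25 of 43 measured lower, with 13 separated downward and 6 upward (30.2% and 14.0%, against 17.9% and 21.9% of all genes), and a median of -0.03. Ybx1, a cold-shock domain protein, stood at 5.41 and 5.25 against 4.92 on both siNF90 arrays, and differed by -0.41 ± 0.124. Fubp1 differed by -0.375 ± 0.127. Tardbp (TDP-43), which represses cryptic exons, stood at 7.25 and 7.24 against 6.86 and 6.95 and differed by -0.34 ± 0.118. These 3 were the genes of the list at an unadjusted p under 0.05. They made 6.98% of it, against 10.3% of all genes and 14.7% of those at or above the median level. None had an adjusted p under 0.05 in the limma fit (adjusted p from 0.415 to 0.44). Factors of nonsense-mediated decay and the exon junction complex, with 11 of 17 measured, had 8 higher and a median of 0.085. The median was -0.025 without the first siNTC array. Eif4a3, the helicase of that complex, differed by 0.64 ± 0.278, and its siNTC arrays were far apart at 2.27 and 3.06. Rbm8a, its partner, differed by 0.32 ± 0.161.

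**Figure D5:**
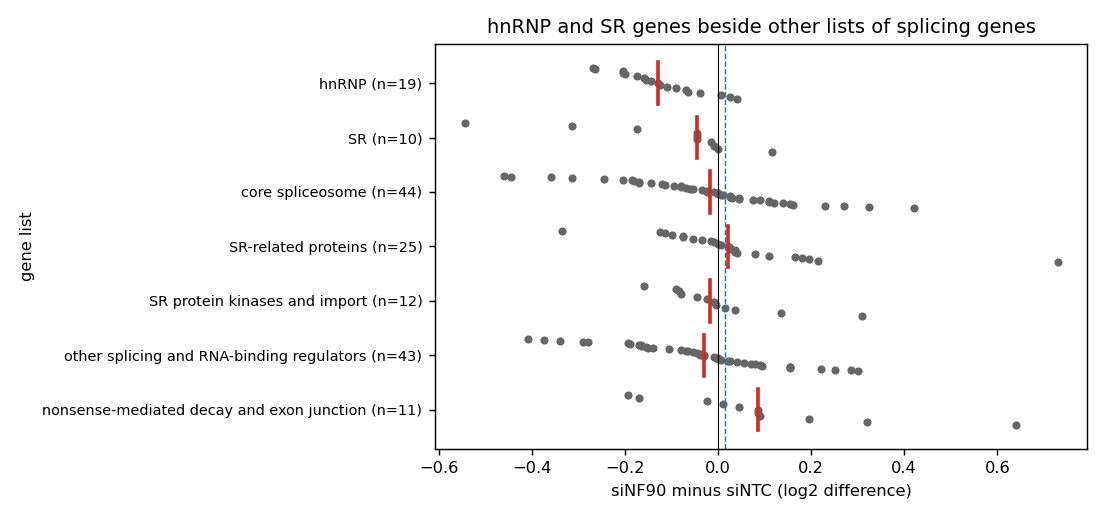
Each point is 1 gene, with its siNF90 minus siNTC difference (log2) on the horizontal axis, in rows for the hnRNP and SR families and for 5 other lists of splicing genes; red bars are medians and the dashed line is the median of all genes, 0.015. The hnRNP median lies at -0.13 and the other medians between -0.045 and 0.085.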

How the data were processed

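RNA of 4 samples of Beta-TC-6 cells was hybridised to Affymetrix Mouse Gene 2.1 ST arrays. The authors deposited 1 table of log2 values for 41345 probe sets. Per the submitters' processing notes the software was Transcriptome Analysis Console; version, background correction and normalization: not given in the sources used here. Base 2 was inferred, since 5 to 10 values an array are too high for natural logs of scanner values. Probe sets with 1 platform symbol (23521) were used, the highest mean per gene, which gave 22180 genes. These were fitted unfiltered with limma 3.58.1 (R 4.3.3; lmFit, eBayes without a trend; siNF90 minus siNTC; two-sided; Benjamini-Hochberg over all genes, threshold 0.05), with 2 residual and 3.92 prior degrees of freedom. Scripts were tested on simulated data. The members and lists were chosen with earlier results of these data known. Values on all arrays are given for members at an unadjusted p under 0.05, the widest difference of each family and fixed paralogue pairs, and the difference, with arrays for some, for up to 3 genes a direction at that p from each other list, or the 2 widest; other values were chosen after they were seen. Alternatives were the replicate block, trend, robust prior, normalization, centring, level filter, probe set choice and leaving out each array. An exact test of 2 arrays against 2 cannot reach 0.05. All 62 members matched the RefSeq table (GRCm38.p6) by symbol.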

Additional observations from a re-analysis of the deposited data

Results flagged for a closer look

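A probe set of Hnrnpk outside the comparison of genes (17287891) gave a higher signal on both siNF90 arrays than on both siNTC arrays, with a difference of 0.565 ± 0.206 in a fit over all 41345 probe sets (unadjusted p = 0.0468, adjusted p = 0.608). It is listed because the rule kept another probe set of the gene, 17479892, which differed by -0.07. The same holds for the brighter probe set 17293142 of Hnrnpk, which went the other way, at -0.52 ± 0.137 in that fit (unadjusted p = 0.0161, adjusted p = 0.56). The groups had too few arrays to look for single arrays that stand apart.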

How the results depend on the processing

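Of the 12 alternatives run, none that kept all 4 arrays had a member at an adjusted p under 0.05. With a trend in the variance prior 101 genes (0.455% of all) passed, none of them a member. In the other fits of all 4 arrays no gene passed, so these fits say nothing about the stability of single calls. The members at an unadjusted p under 0.05 numbered 5 (8.06%, against 10.3% of all genes), 11 with a trend in the variance prior (17.7% against 12.2%), and 2 to 4 with an array left out (3.23% to 6.45%, against 5.94% to 7.78%). With the filter on level 5 members did, 8.62% of those kept against 15.9% of all genes kept. The labels tie the replicate numbers to nothing shared, and arrays of the same number did not deviate together (correlation -0.0202 across genes). With the replicate block 5 members had an unadjusted p under 0.05, Elavl2 (0.0436) in place of Srsf3 (0.0628), and no adjusted call changed. With an array left out, the median ranged from -0.1 to -0.03 over all members, from -0.09 to -0.02 for SR genes, from 0.18 to 0.272 for ELAVL genes, from -0.0625 to -0.01 for the core spliceosome, from 0 to 0.025 for SR-related proteins, from -0.0475 to -0.025 for SR protein kinases and import, from -0.045 to -0.035 for other regulators and from -0.025 to 0.115 for nonsense-mediated decay. With arrays centred on their medians it was 0 for SR-related proteins, -0.0375 for kinases and import and -0.05 for other regulators, which had -0.0475 after quantile normalization and -0.04 with the filter on level. The hnRNP median was below 0 in all 9 alternatives it was computed for, though some of these could hardly change it. The replicate block gives the same differences by construction, and centring shifts all genes of an array alike. The filter on level took out only the pseudogene of the family. The median was not computed for the fit of every probe set, the robust prior or the trend. Some single differences changed sign, among them the wider ones of Celf6 and Srsf1. Centring gave Celf4 -0.005, Hnrnpa1l2-ps2 -0.015 and Mbnl2 -0.01, quantile normalization gave them -0.00187, -0.00625 and -0.005, and the mean of probe sets gave Mbnl2 -0.025. With an array left out, these genes ranged as follows: Celf4 -0.04 to 0.07, Celf6 -0.59 to 0.16, Esrp2 -0.055 to 0.275, Hnrnpa1l2-ps2 -0.175 to 0.185, Hnrnpa3 -0.145 to 0.065, Hnrnpl -0.03 to 0.11, Hnrnpul2 -0.035 to 0.085, Khdrbs1 -0.075 to 0.035, Mbnl2 -0.045 to 0.065, Pcbp2 -0.045 to 0.025, Pcbp3 -0.13 to 0.06, Pcbp4 -0.21 to 0.28, Rbfox1 -0.3 to 0.12, Rbfox3 -0.185 to 0.135, Srsf1 -0.355 to 0.005, Srsf11 -0.045 to 0.025, Srsf12 -0.25 to 0.22, Srsf2 -0.11 to 0.02, Srsf4 -0.11 to 0.02, Srsf5 -0.095 to 0.005. The cause was not tested. Signal over background is not known for any probe set.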
